A study of Mus musculus with 5 samples.

Results

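MYC and 40 nucleolar genes of ribosome assembly were followed across 5 Affymetrix mouse arrays, all of CD4 T cells from BALB/c spleen. The members were all 41 listed genes, measured by the 85 probe sets that name 1 of them as their only gene, of 18193 genes and 45037 probe sets in the table. The arrays held memory Th1 cells, TOFA effector Th1 cells, Rap effector Th1 cells, control effector Th1 cells and naive cells, with 1 array in each group. The effector samples are labelled as cultured primary cells, kept 5 days with IL-2 at 15 ng/ml and IL-12 at 10 ng/ml, and the same protocol text is attached to the naive and memory samples. TOFA inhibits acetyl-CoA carboxylase, the enzyme of the study's title, while the label Rap is not expanded. The sources used here do not give doses of either agent, ages or pooling of the mice, or how naive and memory cells were obtained.

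MYC is a transcription factor that pairs with MAX and binds the DNA letters CACGTG, and it is induced when T cells are activated. Among its best-known targets are the factors that build ribosomes in the nucleolus, where RNA polymerase I copies the ribosomal RNA precursor. Small nucleolar particles then modify this precursor, the small subunit processome folds and cuts it, and further factors finish the small and the large subunit. Growing T cells depend on this supply of ribosomes to enlarge and divide.

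Signals are quantile normalized intensities, compared only within a probe set. Every array was brought to the same distribution, so a signal is relative to the other RNA on its array. RNA per cell was not measured, so an equal signal need not mean an equal amount per cell. Each gene was read from its probe set of highest average log2 signal, and 43.4 was the floor for low signals. All 41 members lay above the floor on all 5 arrays. The shares of all genes given for a comparison also include genes above the floor on only 1 of its 2 arrays. They are thus not matched to the members in brightness. A gene was counted from a 2-fold difference, a log2 difference of 1, and a 1.5-fold count is added because few members passed 2-fold. No group had a replicate, so no difference could be tested and "higher" and "lower" describe these arrays. The SD between probe sets of the same gene, the only measure of error within the arrays, was 0.34 (TOFA) and 0.36 (Rap) against control effector on the log2 scale. It was 0.32 for TOFA against Rap, 0.63 between control effector and naive, 0.52 for memory against naive and 0.66 for memory against control effector.

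Markers of T cells were above the floor for 7 of 7 genes on every array. Markers of other spleen cells were not evenly spread. The summed signal of 8 myeloid markers was 58262 in memory, 455 in TOFA effector, 239 in Rap effector, 214 in control effector and 5919 in naive cells, and that of 7 B cell markers was 46831, 2284, 2489, 1783 and 31756 in the same order. In control effector cells, 1 of the 8 myeloid and 5 of the 7 B cell markers stood above the floor, against 7 and 7 in naive cells and 8 and 7 in memory cells. Less RNA per cell and fewer cells of a type cannot be told apart on such arrays.

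Most members differed little in normalized signal between the 5 arrays. The highest array stood between 1.18-fold (Fbl) and 3.77-fold (Myc) over the lowest, with a median of 1.62-fold, against 1.95-fold for the 9833 genes that were likewise above the floor on all arrays. For 15 members all 5 arrays lay within 1.5-fold of each other (22.7% of those genes), and for 32 within 2-fold (52.2%). The other 9 were Myc, Nop58, Nolc1, Rrp1b, Utp15, Gar1, Nhp2, Nop10 and Noc4l. The memory array was the lowest of the 5 for 22 members (28.3% of those genes). In 18 members, Myc, Ncl, Npm1 and Nop58 among them, the 3 effector arrays all lay above both memory and naive cells (31.7% of those genes). The opposite order was found in 3, Utp20, Nop10 and Heatr1 (26.1%).

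**Figure D1:**
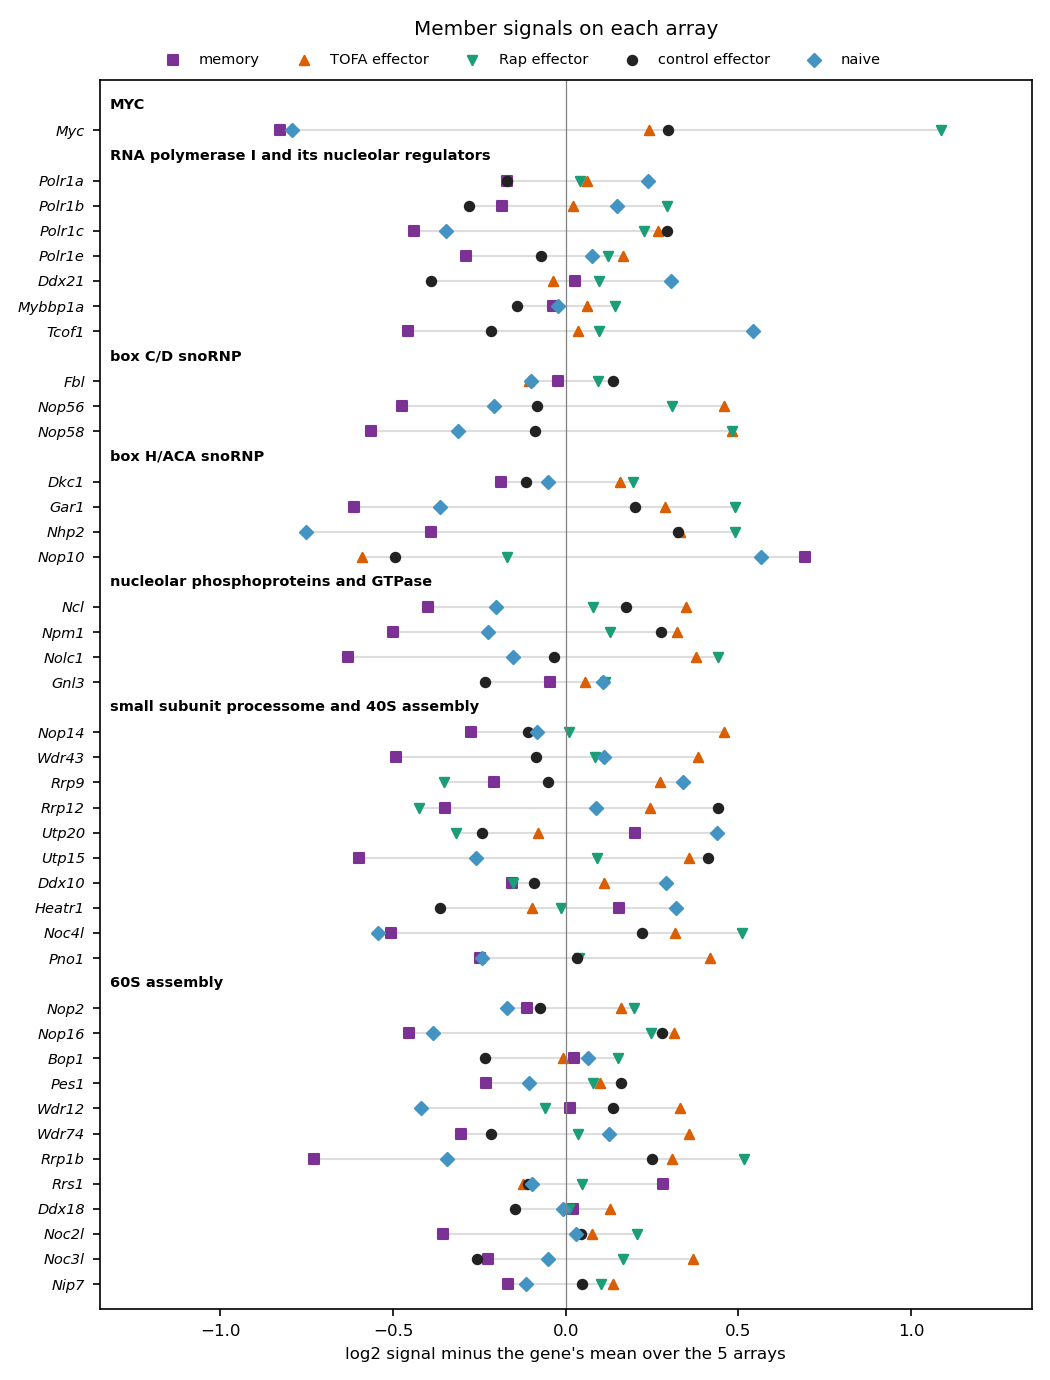
Signal of each member on each array, as the log2 signal minus that gene's mean over the 5 arrays, grouped by role, with 1 symbol per array. Myc spreads furthest (3.77-fold), Nop10 runs opposite to Nhp2, and the memory array is the lowest for 22 of 41 members.

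Control effector cells differed from naive cells in both directions across the members. Myc and Nhp2 were at least 2-fold higher and Nop10 at least 2-fold lower, so 3 of 41 members passed 2-fold where 27.3% of all 13070 genes compared did. At 1.5-fold, 7 members were higher (26.3% of all genes) and 5 lower (22.3% of all genes). The members' median difference was 0.01 on the log2 scale and that of all genes 0.04, with 21 members above 0 (52.0% of all genes) and 20 below (48.0%). Cycling cell markers had a summed signal of 46561 in control effector and 1518 in naive cells, and the B cell and myeloid sums given above differed between the same arrays. Their part in the members' differences was not tested.

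In the TOFA array most members were slightly higher than in the control effector array. No member passed 2-fold, where 4.62% of 12850 genes did, and 33 of 41 lay above 0, where 51.3% of all genes did. The median was 0.20 for the members and 0.01 for all genes. Noc3l passed 1.5-fold higher (8.64% of all genes) and no member passed it lower (8.20%). The members ranged from -0.24 for Fbl to 0.63 for Noc3l. All 4 cycling cell markers were below 0 in the same comparison (median -0.32), with a summed signal of 41014 in TOFA and 46561 in control effector cells. Of 4 Th1 effector markers, 3 were below 0, with sums of 18841 and 34776. Their part in the members' differences was not tested.

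Rap cells gave a median of 0.19 over the members, against 0.00 for all genes, relative to the same control effector array. No member passed 2-fold (5.73% of 12851 genes did), and 29 lay above 0, as did 49.5% of all genes. Myc passed 1.5-fold higher (7.74% of all genes) and Rrp12 passed 1.5-fold lower (11.0%). Of 4 Th1 effector markers, 3 were below 0 in this comparison, with sums of 30612 in Rap and 34776 in control effector cells. Of 4 cycling cell markers, 2 were above and 2 below 0 (median -0.01). The 2 naive cell markers (median 0.72) and all 6 B cell markers compared (median 0.56) were above 0. The part of these differences in those of the members was not tested. The TOFA and Rap comparisons share 1 control array, so a deviation of that array moves both.

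TOFA set directly against Rap, which leaves the control array out, gave a members' median of 0.02, the same as the 0.02 of all genes. No member passed 2-fold (4.63% of 12802 genes did). Rrp12 and Rrp9 were over 1.5-fold higher in TOFA cells (9.86% of all genes) and Myc was over 1.5-fold lower (6.13%). In 2 of these, Myc and Rrp9, TOFA and Rap also lay on opposite sides of the control effector array, as in 8.91% of 11733 genes. The 10 small subunit factors had a median of 0.28 with 8 above 0 (52.7% of all genes), and all 4 box H/ACA members lay below 0 (47.3%) with a median of -0.18. Other probe sets of Wdr43, Utp15 and Ddx10, 3 of those 8 small subunit factors, lay below 0 in this comparison (-0.10, -0.15 and -0.09). Over all members, 20 of 41 other probe sets had the direction of the probe set used, against 64.2% for all genes.

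Memory cells were lower than naive cells for 33 of 41 members, where 53.5% of all genes were, with a median of -0.19 for the members and -0.05 for all genes. None passed 2-fold (16.7% of 13082 genes did). At 1.5-fold, Tcof1 and Wdr43 were lower (14.2% of all genes) and none was higher (19.6% of all genes). The myeloid marker sum was 58262 in memory and 5919 in naive cells, and the B cell sum 46831 and 31756. How far RNA of those cells moved the members was not tested.

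Memory cells set against control effector cells gave a median of -0.21 for the members and -0.03 for all genes. Nop10 was at least 2-fold higher, and Myc and Utp15 at least 2-fold lower, so 3 of 41 passed 2-fold, where 28.6% of 13326 genes did. Below 0 lay 29 members, and 51.6% of all genes. At 1.5-fold, 11 members were lower and 1 higher, against 24.6% and 24.1% of all genes. This comparison has the largest differences in myeloid and B cell marker sums, 58262 against 214 and 46831 against 1783, whose part was not tested. With the signals as deposited, the median of all genes moved to 0.18 while that of the members was -0.23, and 22 members lay below 0 in place of 29.

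**Figure D2:**
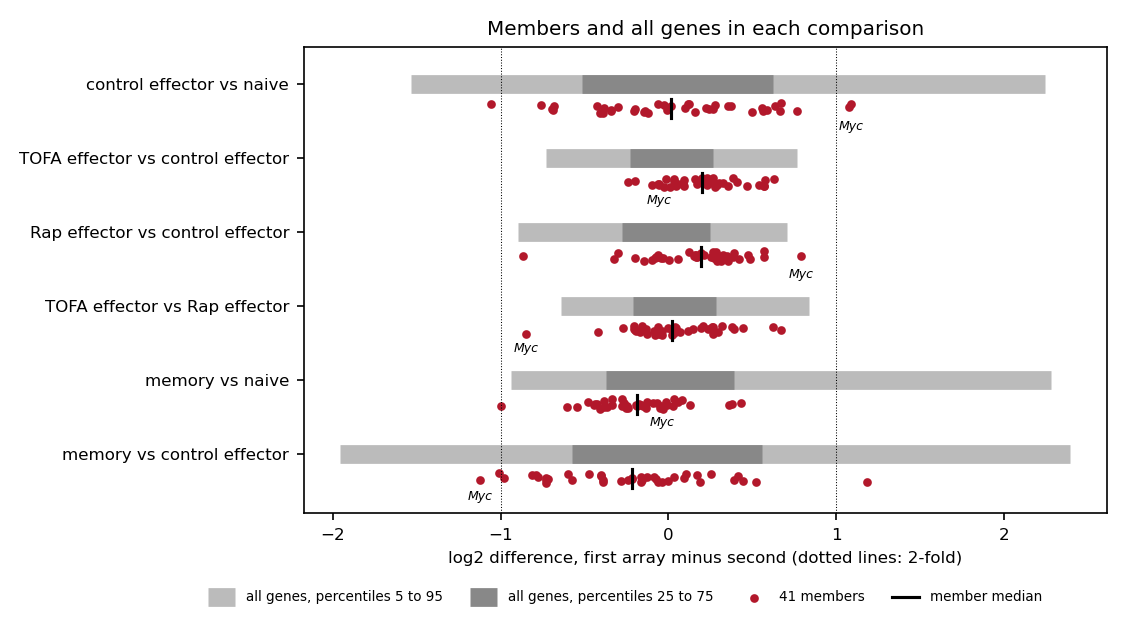
Log2 difference of each of the 41 members (red points, with a black bar at their median) under the spread of all genes compared (grey bars) in the 6 comparisons, first array minus second. The member medians are 0.20 (TOFA) and 0.19 (Rap) against control effector, 0.02 for TOFA against Rap, and -0.19 and -0.21 for memory against naive and control effector.

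Myc, read by a single probe set, separated the effector arrays from the resting ones and the Rap array from the other effectors. Its signal was 2329 in memory, 4884 in TOFA effector, 8783 in Rap effector, 5076 in control effector and 2385 in naive cells. Memory and naive cells were within 1.02-fold of each other, as were TOFA and control effector cells within 1.04-fold. Myc was 2.13-fold higher in control effectors than in naive cells and 2.18-fold lower in memory than in control effector cells. In Rap cells it was 1.73-fold higher than in control effector cells, a log2 difference of 0.79, and in TOFA cells it was 1.80-fold lower than in Rap cells.

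Some genes of the MYC network around it differed more than Myc between control effector and naive cells. Max, the obligate partner of MYC, had signals of 227 in memory, 1275 in TOFA effector, 1749 in Rap effector, 899 in control effector and 120 in naive cells, and was 7.52-fold higher in control effectors than in naive cells. Like Myc, it was highest in Rap cells. Mxd3, which pairs with MAX in place of MYC and represses, had signals of 50.3, 673, 1684, 1117 and 68.5 in the same order. It was 16.3-fold higher in control effectors than in naive cells and 2.50-fold lower in TOFA than in Rap cells. Mxi1, a repressor of the same family, was 9.02-fold higher in control effectors than in naive cells, with signals of 786, 4560, 5293, 7000 and 776 in the array order used for Max. Its relative Mxd4 went the other way, 2.64-fold lower in control effectors than in naive cells, and so did Mycbp2, a large ubiquitin ligase named for binding MYC (4.17-fold lower). Of 12 network genes compared, 4 passed 2-fold higher (15.9% of all genes) and 3 lower (11.4%) in control effector against naive cells. Against control effector cells, 0 of the 12 passed 2-fold in TOFA (4.62% of all genes) or Rap (5.73%). In memory against control effector cells, 3 of 13 passed 2-fold higher (14.5% of all genes) and 5 lower (14.1%). Mycn, a relative of MYC, was 3.83-fold higher there near the floor, with signals of 169 in memory and 44.2 in control effector cells.

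**Figure D3:**
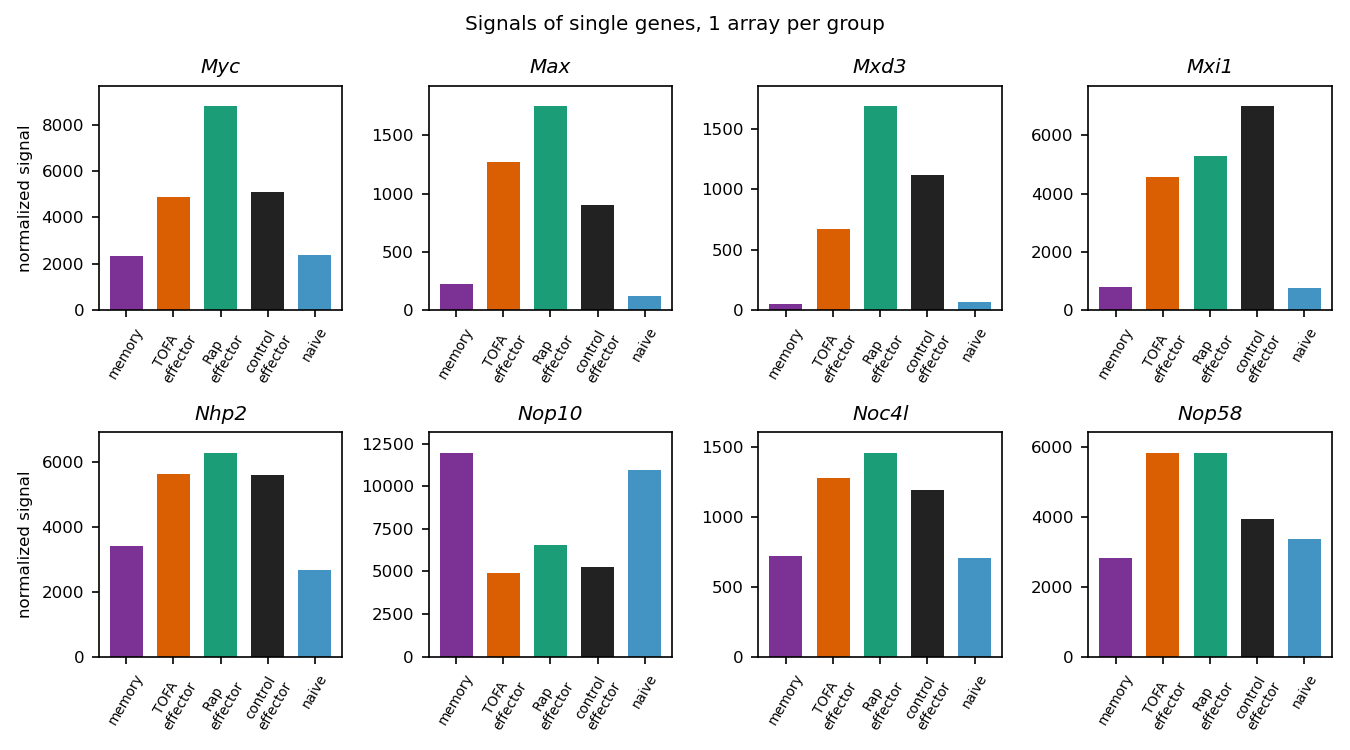
Normalized signal (linear axis from 0) of Myc, its network genes Max, Mxd3 and Mxi1, and the members Nhp2, Nop10, Noc4l and Nop58, with 1 bar per array. Myc, Max and Mxd3 are highest in Rap cells, and Nop10 stands at 4916 to 6574 in the effector arrays, against 11951 in memory and 10938 in naive cells.

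Targets of MYC outside the nucleolus are given for comparison, with no claim that these lists differ. Of 19 measured, 6 passed 2-fold higher and 0 lower in control effector against naive cells, with a median of 0.76 (all genes 0.04, with 15.9% higher and 11.4% lower). They included Odc1, which starts polyamine synthesis (7.68-fold), Tfrc, the iron uptake receptor (7.63-fold), and Ldha, lactate dehydrogenase (3.28-fold). Memory cells had 9 of the 19 at least 2-fold lower than control effector cells and 0 higher, with a median of -0.93 (all genes -0.03, with 14.1% lower and 14.5% higher). The myeloid and B cell marker sums of these arrays differ as given above, and their part was not tested. Against control effector cells the medians were 0.11 (TOFA) and 0.12 (Rap), with 0.01 and -0.004 for all genes. In either comparison 0 of the 19 passed 2-fold, where 4.62% (TOFA) and 5.73% (Rap) of all genes did.

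Promoters from RefSeq (GRCm38.p6), 250 bases before to 50 after the start, were found for 34 of the 41 members, 38 promoters in all. CACGTG, the MYC and MAX site, which reads the same on both strands, was in 6 of the 38 (15.8%), against 7.15% of all 32851 promoters. The stretches that hold it are shown because they are the members whose own promoter letters include the MYC site, with CACGTG in capitals.
Nop2 (chr6:125131793-125131858, + strand): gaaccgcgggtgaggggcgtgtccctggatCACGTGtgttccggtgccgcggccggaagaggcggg
Pes1 (chr11:3963947-3964012, + strand): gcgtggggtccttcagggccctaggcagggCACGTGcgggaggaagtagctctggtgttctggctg
Wdr43 (chr17:71616202-71616264, + strand): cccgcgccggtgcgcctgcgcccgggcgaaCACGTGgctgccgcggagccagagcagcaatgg
Mybbp1a (chr11:72441337-72441376, + strand): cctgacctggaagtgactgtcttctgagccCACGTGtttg
Pno1 (chr11:17211540-17211582, - strand): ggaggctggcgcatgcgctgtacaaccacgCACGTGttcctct
Utp20 (chr10:88826765-88826807, - strand): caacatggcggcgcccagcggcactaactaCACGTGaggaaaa

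The site began 60 bases before the start in Nop2, at base 3 after it in Pes1, 18 in Wdr43, 38 in Pno1 and Utp20, and 41 in Mybbp1a, the first transcribed base being 1. These 6 members had a median difference of -0.01 between control effector and naive cells, and so had the 28 others with a promoter. In TOFA against control effector cells the medians were 0.22 and 0.23, and in Rap against control effector cells 0.09 and 0.23. A match of letters is not a binding event. The share of member promoters with CACGTG was not matched to that of all promoters in base composition, whose part was not tested.

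RNA polymerase I subunits and their nucleolar regulators were mostly lower in control effectors than in naive cells, 6 of 7 below 0 (48.0% of all genes) with a median of -0.41. Polr1a and Polr1b, the large catalytic subunits, had log2 differences of -0.41 and -0.43 there. Other probe sets of Polr1a above the floor gave -1.29 and -0.46. Polr1c, a subunit shared with RNA polymerase III, went the other way, with signals of 1702 in memory, 2774 in TOFA effector, 2701 in Rap effector, 2826 in control effector and 1816 in naive cells (1.56-fold higher in control effectors than in naive cells). Polr1e, another subunit, kept within 1.37-fold across all arrays on the probe set used.

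Tcof1, the treacle scaffold of ribosomal DNA transcription, had signals of 501 in memory, 706 in TOFA effector, 735 in Rap effector, 592 in control effector and 1002 in naive cells. It was 1.69-fold lower in control effector cells than in naive cells, and 1.99957-fold lower in memory cells, just under the 2-fold limit. All 3 of its probe sets were below 0 in both comparisons. Ddx21, a nucleolar helicase of ribosomal RNA transcription and processing, was 1.62-fold lower in control effectors than in naive cells, with a difference of -0.08 on its second probe set. On the probe set used, its log2 differences from control effector cells were 0.35 in TOFA and 0.49 in Rap cells. Mybbp1a, a nucleolar regulator that binds MYB, differed by no more than 1.22-fold between any arrays on the probe set used. All 7 members of this group were lower in memory than in naive cells (median -0.33). So were 33 of all 41 members and 53.5% of all genes (median of all genes -0.05). The part of myeloid and B cell RNA in the memory array was not tested. Outside the members, 14 genes of the polymerase I machinery were measured. In control effector against naive cells, 7 lay above and 7 below 0 (median -0.01). In memory against naive cells, 5 lay above and 9 below 0 (median -0.15). Polr1d (2.17-fold) and Cd3eap (2.16-fold), both polymerase I subunits, were higher in control effectors than in naive cells, and Taf1c, of its promoter selectivity factor, was 2.62-fold lower.

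Box C/D particles place methyl groups on ribosomal RNA. Their methyltransferase Fbl was nearly flat, at 7775 in memory, 7346 in TOFA effector, 8427 in Rap effector, 8696 in control effector and 7363 in naive cells. The scaffold proteins were not. Nop56 had signals of 3050.3, 5816, 5245, 3999 and 3671 in that order, 1.45-fold higher in TOFA and 1.31-fold higher in Rap than in control effector cells. Nop58 stood at 2827 in memory, 5840 in both TOFA and Rap effector, 3931 in control effector and 3368 in naive cells, 1.49-fold higher in TOFA and in Rap than in control effector cells. The equal values come from an equal rank on the 2 arrays. Both scaffolds were highest in the TOFA or Rap arrays and lowest in memory cells, and the second probe set of Nop56 gave 0.36 (TOFA) and 0.39 (Rap) against control effector cells.

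Box H/ACA particles turn uridine into pseudouridine and also sit in telomerase, and their 4 core proteins did not run the same way. Nhp2 had signals of 3405 in memory, 5620 in TOFA effector, 6267 in Rap effector, 5589 in control effector and 2649 in naive cells, with all 3 effector arrays above both resting arrays. Nop10 had 11951, 4916, 6574, 5249.7 and 10938 in the same order, with all 3 effector arrays below both. In control effector against naive cells Nhp2 was 2.11-fold higher and Nop10 2.08-fold lower, and their second probe sets gave 1.05 and -1.17 on the log2 scale. With the signals as deposited, Nop10 differed by -0.84, under 2-fold. Against control effector cells, Nop10 was 2.28-fold higher in memory cells, with a log2 difference of 0.87 on its second probe set and of 0.92 as deposited. Gar1, read only by a probe set that can match several transcripts, was 1.48-fold higher in control effectors than in naive cells. The probe sets used for Fbl, Polr1c, Nhp2, Rrs1 and Polr1e can also match several transcripts, but each of these genes has another probe set. Dkc1, the pseudouridine synthase dyskerin, differed by 1.05-fold between control effector and naive cells and by no more than 1.30-fold across all arrays on the probe set used. Its other probe sets ran from 1728 in memory to 2898 in Rap cells and from 1496 in memory to 2611 in TOFA cells. All 4 core proteins were higher in Rap than in control effector cells (49.5% of all genes), by 0.16 to 0.32 on the log2 scale.

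Nhp2 and Nop10 promoters (RefSeq, GRCm38.p6) are shown because 2 subunits of one particle ran in opposite directions. Capitals mark CACGCG or, on the other strand, CGCGTG, a variant of the MYC site that was looked for after these values were seen. It was in 14 of the 38 member promoters (36.8%) and in 9.27% of all promoters, and neither of these 2 promoters held CACGTG. Member and all promoters were not matched in base composition, whose part in these shares was not tested.
Nhp2 (chr11:51619523-51619822, + strand): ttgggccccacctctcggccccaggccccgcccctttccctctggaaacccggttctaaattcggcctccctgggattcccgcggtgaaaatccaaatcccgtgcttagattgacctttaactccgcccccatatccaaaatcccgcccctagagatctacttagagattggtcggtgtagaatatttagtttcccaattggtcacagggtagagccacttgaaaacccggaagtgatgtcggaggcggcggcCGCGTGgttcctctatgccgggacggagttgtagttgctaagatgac
Nop10 (chr2:112261676-112261975, + strand): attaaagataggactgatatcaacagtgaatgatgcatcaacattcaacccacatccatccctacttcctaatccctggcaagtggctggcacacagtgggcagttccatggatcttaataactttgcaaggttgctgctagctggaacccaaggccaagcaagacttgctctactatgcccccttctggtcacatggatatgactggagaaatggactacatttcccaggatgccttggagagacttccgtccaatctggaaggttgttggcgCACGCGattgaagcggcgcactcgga

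The variant began at base 4 after the start in Nhp2 and at base 25 in Nop10. It was thus present in the member that was higher and in the one that was lower in control effector cells.

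The abundant nucleolar proteins nucleolin and nucleophosmin followed the effector state. Ncl, nucleolin, had signals of 14019 in memory, 23508 in TOFA effector, 19516 in Rap effector, 20843 in control effector and 16055 in naive cells. Npm1, nucleophosmin, a chaperone of assembling ribosomes, had 21450.3, 37940.1, 33157, 36693 and 25932 in the same order. In both genes the order over the arrays was the same, TOFA highest and memory lowest, yet each step between effector arrays was within 1.20-fold on the probe sets used. The other 4 probe sets of Ncl lay between -0.17 and 0.57 in control effector against naive cells, 2 of them on each side of 0. Npm1 was 1.41-fold higher in control effectors than in naive cells and 1.71-fold lower in memory than in control effector cells. Nolc1, a chaperone of small nucleolar particles, had signals of 1349, 2714, 2834, 2041 and 1881 in that order, 1.33-fold higher in TOFA and 1.39-fold higher in Rap than in control effector cells. Gnl3, the GTPase nucleostemin, was lowest in control effector cells and within 1.27-fold across the arrays.

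Small subunit factors included Rrp12 and Rrp9, which with Myc differed over 1.5-fold between TOFA and Rap. Rrp12, which acts late in small subunit assembly and export, had signals of 224 in memory, 339 in TOFA effector, 213 in Rap effector, 388 in control effector and 304 in naive cells. It was 1.82-fold lower in Rap than in control effector cells and 1.59-fold higher in TOFA than in Rap cells. Rrp9, a protein of the U3 particle that guides early cuts, had 346, 482, 312, 385 and 504 in the same order, 1.54-fold higher in TOFA than in Rap cells. Each of these genes has 1 probe set. Outside the members, Nol6, another early small subunit factor, had 324 in TOFA and 78.9 in Rap cells, 4.10-fold higher in TOFA, and 188 in control effector cells.

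Nop14, a processome subunit, was 1.48-fold higher in TOFA than in control effector cells and 1.09-fold higher in Rap cells. Wdr43, also of the processome, was 1.38-fold and 1.13-fold higher in the same comparisons, and Pno1, a late small subunit factor, had log2 differences of 0.39 and 0.01. Of the 10 small subunit members, 8 lay above 0 for TOFA against control effector cells (median 0.24, 51.3% of all genes above 0). For Rap 5 did (median -0.03, 49.5% of all genes). Heatr1 and Utp20, large processome scaffolds, were 1.61-fold and 1.60-fold lower in control effectors than in naive cells. Noc4l had the opposite sign, with signals of 722 in memory, 1278 in TOFA effector, 1461 in Rap effector, 1196 in control effector and 704 in naive cells. All 4 of its probe sets were higher in control effectors than in naive cells, by 0.76 to 1.54. Those other than the probe set used can match several transcripts. Utp15, a processome subunit, was 2.02-fold lower in memory than in control effector cells on the probe set used, while its other probe set differed by -0.07 and the signals as deposited gave -0.82. Ddx10, a helicase of the same step, stayed within 1.36-fold.

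Bop1, Pes1 and Wdr12 form one complex that large subunit maturation needs. Bop1 had signals of 745 in memory, 729 in TOFA effector, 813 in Rap effector, 623 in control effector and 766 in naive cells. Pes1 stayed within 1.31-fold on the probe set used. Its other probe set had 54.5 in control effector cells, and was 2.85-fold higher in TOFA and 2.91-fold higher in Rap cells. Wdr12 was 1.47-fold higher in control effectors than in naive cells. Nop16 (1.58-fold) and Rrp1b (1.51-fold) were higher in control effectors than in naive cells as well. Rrp1b, a nucleolar protein, had signals of 1009 in memory, 2072 in TOFA effector, 2390.5 in Rap effector, 1987 in control effector and 1319 in naive cells, and was 1.97-fold lower in memory than in control effector cells.

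Wdr74, a large subunit factor, was 1.49-fold higher and Noc3l, which acts in early large subunit particles, 1.55-fold higher in TOFA than in control effector cells, with Rap at 1.19-fold and 1.34-fold. Noc3l had signals of 302 in memory, 455 in TOFA effector, 395 in Rap effector, 295 in control effector and 340.3 in naive cells, and its other probe set gave 1.18 for TOFA and 0.75 for Rap. Ddx18, a helicase, Nip7, a late factor, Noc2l, the partner of Noc3l, and Nop2, a ribosomal RNA methyltransferase, stayed within 1.48-fold across the arrays on the probe sets used. Another probe set of Ddx18 ran from 89.0 in control effector to 239 in naive cells. That of Nip7 ran from 159 in TOFA to 271 in naive cells. Rrs1, which helps load the small ribosomal RNA of the large subunit, was highest in memory cells on the probe set used, at 3222 against 2475 in naive cells. Its other probe set was higher in TOFA (2650) and Rap (2619) cells than in memory (2338) and naive (1990) cells. Over the 12 members of this group the medians were 0.14 (TOFA) and 0.16 (Rap) against control effector cells, and 0.05 between control effector and naive cells.

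Assembly factors outside the members were also counted. Of 40 further small subunit factors, 35 lay above 0 for TOFA against control effector cells (median 0.24, 51.3% of all genes above 0) and 23 for Rap (median 0.08, 49.5% of all genes). Of 41 further large subunit factors the counts were 36 (median 0.24) and 33 (median 0.15). Against 2-fold, none of these factors was called for TOFA, and 1, Nol6, was for Rap (2.38-fold lower), where 4.62% and 5.73% of all genes passed it. Between control effector and naive cells, 24 of the 40 lay below 0 (median -0.14) and 27 of the 41 (median -0.23), against 20 of the 41 members (median 0.01) and 48.0% of all genes. Their medians in memory against control effector cells were -0.07 and -0.02, against -0.21 for the members. In control effector against naive cells Utp6 was 2.17-fold higher, and Wdr46 (4.55-fold), Mdn1 (3.29-fold), Urb1 (2.46-fold) and Nol8 (2.27-fold) were lower. Mdn1 encodes a giant ATPase that pulls assembly factors off the large subunit. In memory cells Wdr75 was 2.61-fold higher than in naive and 2.91-fold higher than in control effector cells, Utp3, Urb2 and Znhit3 were 2.03-fold, 2.43-fold and 2.11-fold lower than in control effector cells, and Wdr46 was 2.58-fold and Mdn1 2.20-fold higher.

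Probe sets of the same member did not always tell the same story. In control effector against naive cells, 29 members had more than 1 probe set above the floor. All probe sets lay above 0 in 7 of them, all below 0 in 11, and on both sides of 0 in 11. In Nolc1, Bop1, Wdr12, Ddx18 and Noc3l the probe sets of a gene disagreed by at least 2-fold. For Noc3l the other probe set had signals of 112 in control effector and 440.3 in naive cells (3.94-fold lower), and for Bop1 130.1 and 421 (3.24-fold lower), while the probe sets used differed by -0.21 and -0.30. Wdr12 gave 0.56 on the probe set used and -1.42 on another. Of 40 other probe sets of members above the floor, 8 were at least 2-fold lower (13.3% of all other probe sets) and 5 higher by the same limit (12.5%) in control effector cells.

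**Figure D4:**
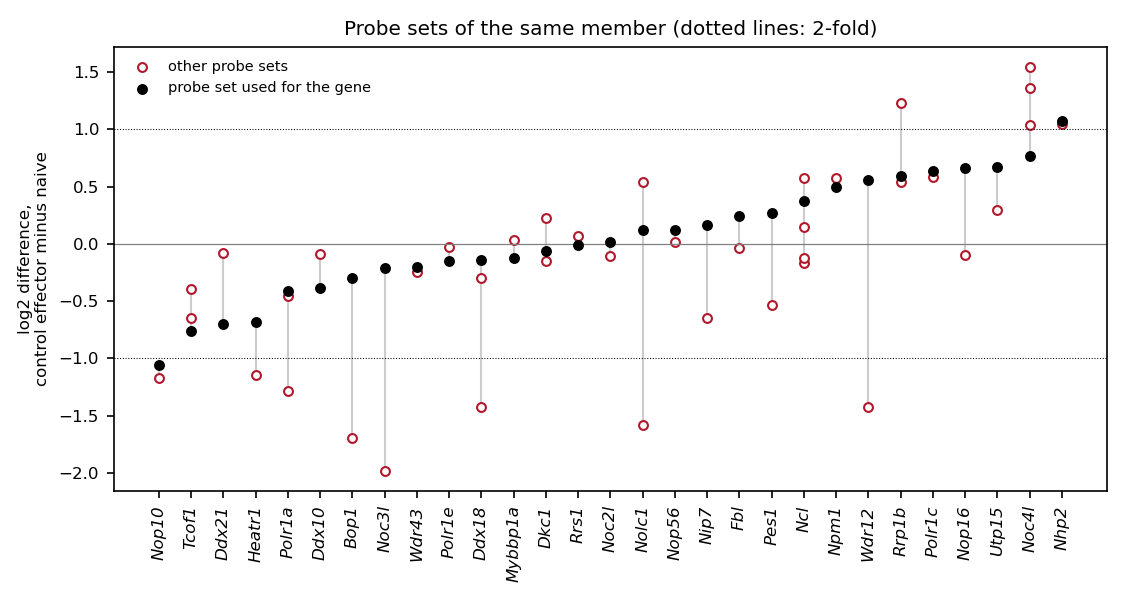
Log2 difference between control effector and naive cells on each probe set of the 29 members that have several above the floor, with the probe set used for the gene in black and others open. All 4 probe sets of Noc4l and both of Nhp2 are above 0, both of Nop10 are below -1, and those of Nolc1, Bop1, Wdr12, Ddx18 and Noc3l disagree by at least 2-fold.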

How the data were processed

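Per the labels, biotin-labelled total RNA was hybridised to 1 Affymetrix array per group. Per the submitters' processing notes, GCOS and Affymetrix Expression Console were used, whose algorithm and versions the sources used here do not give. The deposited values are intensity, a linear signal per probe set, and their mean after trimming 2% at each end was 500.003 on every array. Array medians as deposited lay between 63.1 and 99.5, a log2 range of 0.66, so 45037 probe sets (64 controls left out) were quantile normalized in Python 3.11.15 with numpy 2.4.6 and pandas 2.3.3. Values under the 40th percentile (43.4) were set to it. Genes come from the platform's 34945 probe sets with 1 symbol, with the brightest on average standing for the gene. A gene was compared where at least 1 of the arrays was above the floor. No test was possible with 1 array per group. The steps were tested on simulated data. All members were named, and of other lists up to 3 genes each way past 2-fold, the brighter array at or above the 60th percentile (150.5). Members and lists were chosen with earlier results of these data known. The 3'/5' ratio of control probe sets was 0.832 to 0.918 for Gapdh and 1.26 to 1.45 for beta-actin. The number of arrays limits the precision.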

Additional observations from a re-analysis of the deposited data

Results flagged for a closer look

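TOFA and Rap lay on opposite sides of the control effector array, and over 1.5-fold apart from each other, in 2 of 41 members, a pattern met by 8.91% of 11733 genes. Myc differed by -0.85 on the log2 scale between TOFA and Rap cells, with -0.06 (TOFA) and 0.79 (Rap) against control effector cells. Rrp9 differed by 0.62 between TOFA and Rap cells, with 0.33 (TOFA) and -0.30 (Rap) against control effector cells. With 1 array per group, neither difference was tested.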

How the results depend on the processing

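The members' medians, their numbers above 0 and past 2-fold, and each member's difference were recomputed with signals as deposited, with the floor at the 20th or the 60th percentile, with an added constant in place of the floor, with the average over each gene's probe sets, and without probe sets ending in _x_at or _s_at. The 1.5-fold counts, orders over the 5 arrays and promoter medians were computed under a single setting. Leaving the memory array out of the normalization was added after the data were seen. The median of the members stayed between 0.20 and 0.24 for TOFA and 0.18 to 0.25 for Rap against control effector cells, between -0.22 and -0.18 for memory against naive and between -0.23 and -0.15 for memory against control effector cells. It crossed 0 for control effector against naive (-0.05 to 0.02) and TOFA against Rap (-0.01 to 0.02). Counts past 2-fold stayed at 0 where they were 0. Of all genes at the 60th percentile floor, 140 passed 2-fold higher and 85 lower in TOFA against control effector cells, from 318 and 276. For Rap against control effector cells these were 71 and 215, from 234 and 503. Fewer genes are compared at that higher floor. With the average over probe sets, 5 members in place of 3 passed 2-fold in control effector against naive cells. With the signals as deposited, 1 in place of 3 passed it in memory against control effector cells, and the split of all genes past 2-fold moved to 2601 higher and 1453 lower from 1932 and 1873 (memory against naive: 2075 and 344 from 1645 and 542). No member past 2-fold changed sign under these alternatives. No paired analysis was possible because each group has 1 array. With 1 array per group no replicate could be left out, and signals near the floor of 43.4, as for Mycn, limit the fold that can be read.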
